A study of Mus musculus with 22 samples.

Results

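The tubulin isotype genes described here are the alpha tubulins *Tuba1a*, *Tuba1b* and *Tuba4a* and the beta tubulins *Tubb2a*, *Tubb2b*, *Tubb3*, *Tubb4a*, *Tubb4b*, *Tubb5* and *Tubb6*. They were picked by gene symbol, as 10 of the 55385 genes quantified, with earlier results of these data already known. Ribosome-bound mRNA (the translatome) was captured from 6 cell types of 6-week-old mice that carried the RiboTag allele as Rpl22 Fl/+, so that Cre recombination tags ribosomal protein L22 with HA in the targeted cells. Dentate gyrus granule cells (Rbp4-Cre, hippocampus), layer V cortical neurons (Rbp4-Cre, cortex), cerebellar granule cells (Gabra6-Cre, cerebellum), inhibitory interneurons (Dlx6a-Cre, hippocampus, 2 mice pooled per sample), astrocytes of the cortex (labelled Aldh1-cre) and cortical microglia (Tmem119-cre) were each profiled in 3 biological replicates. All groups shared the RiboTag allele, no group lacked Cre, and, per the study's methods, astrocytes and microglia also received tamoxifen because their Cre lines are inducible. Each group is a Cre line as much as a cell type, since whatever cells a driver recombines contribute mRNA, and tissue and cell type cannot be told apart for types from different regions.

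Microtubules are built from dimers of alpha and beta tubulin, and mammals encode each subunit in several genes whose products differ mostly in the acidic C-terminal tail. That tail projects from the microtubule surface, where motors and microtubule-associated proteins bind it and where enzymes add glutamates or remove and restore the final tyrosine of alpha tubulin. In the nervous system *Tubb3* is the customary neuronal marker, *Tuba1a* and *Tubb2b* are known from human malformations of cortical development, and *Tubb4a* from a disorder of myelin that also affects the cerebellum and basal ganglia.

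The end of the coding sequence is shown first, because most isotypes differ more there than over the whole coding sequence. Between isotypes of one subunit, the last 60 coding bases were 46.7% to 79.4% identical, against at least 81.4% over all coding bases. The exceptions were *Tuba1a* with *Tuba1b*, at 98.3% for both, and *Tubb2a* with *Tubb2b*, at 95.0% against 96.5%, and *Tubb6* was not compared. Each line gives the last 60 bases of the coding sequence, stop codon included, in the sense direction, with codons for glutamate or aspartate in capitals.
Tuba4a: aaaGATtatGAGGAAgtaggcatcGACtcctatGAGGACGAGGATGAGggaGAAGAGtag
Tubb2a: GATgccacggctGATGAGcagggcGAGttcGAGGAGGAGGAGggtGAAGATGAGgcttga
Tubb2b: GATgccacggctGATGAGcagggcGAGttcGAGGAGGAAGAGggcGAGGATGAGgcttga
Tubb3: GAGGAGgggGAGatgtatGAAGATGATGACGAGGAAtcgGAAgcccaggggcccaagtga
Tubb4a: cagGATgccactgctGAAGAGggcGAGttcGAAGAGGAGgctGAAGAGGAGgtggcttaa
Tubb4b: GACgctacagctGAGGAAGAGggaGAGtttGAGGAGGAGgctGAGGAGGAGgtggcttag
Tubb5: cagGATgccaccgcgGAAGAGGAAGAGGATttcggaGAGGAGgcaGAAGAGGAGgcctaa

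These stretches lie in the exon that holds the stop codon, in GRCm38, at chr1:75215622-75215681 (*Tuba4a*), chr13:34074468-34074527 (*Tubb2a*), chr13:34127471-34127530 (*Tubb2b*), chr17:57080690-57080749 (*Tubb4a*), chr2:25222308-25222367 (*Tubb4b*) and chr17:35834982-35835041 (*Tubb5*), all on the minus strand, and at chr8:123421623-123421682 (*Tubb3*) on the plus strand. No sequence is shown for *Tuba1a*, *Tuba1b* or *Tubb6*. Each stretch held 10 or 11 acidic codons of 20. *Tuba4a* ended in glutamate. *Tubb3* had the longest unbroken run of acidic codons among those shown, 6, and ended in lysine, while the other beta isotypes shown ended in alanine.

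*Tuba1a* and *Tuba1b* encoded proteins identical at 99.6% of aligned residues, and so did *Tubb2a* and *Tubb2b*. *Tubb3* was the most distant beta isotype, at 90.7% to 91.6% identity with the others shown. This likeness bears on the measurement, because kallisto assigns reads by matching short words to transcripts, compared here at its default length of 31 bases. In the leading transcript of *Tuba1b*, 86.0% of these words also occurred in transcripts of other genes, against 78.6% in *Tuba1a*, 70.4% in *Tubb4b*, 56.4% in *Tubb2a* and 45.9% in *Tubb2b*. *Tuba1a* shared 53.4% of its words with *Tuba1b*, and *Tubb2a* shared 51.1% with *Tubb2b*. The split of reads within those pairs is therefore an estimate. Sharing also reached beyond the pairs. *Tuba1a* shared 54.7% of its words with *Tuba1c*, which stood at no more than 14.4 TPM, and *Tuba1b* shared 66.8% with a long non-coding gene at no more than 1.89 TPM. How many reads were assigned across these genes was not tested. *Tubb4b* shared most of its words with a pseudogene that stood at no more than 0.161 TPM in any library. *Tubb3*, *Tubb4a*, *Tubb5* and *Tubb6* shared between 1.9% and 4.5%. *Tuba4a* shared 29.5% with *Stk16*, a gene that overlaps it on the opposite strand and ranged from 36.4 to 84.9 TPM, and reads from the overlap cannot be told apart without a strand setting.

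Levels are given as TPM, a transcript's abundance per length relative to all transcripts of the library, which corrects for transcript length, so isotypes can be set against each other. The 18 libraries held 38270477 to 71440915 estimated counts, of which 120148 to 570335 fell on the 10 isotypes. Of 32 markers of the labelled cell types, 29 stood higher in every library of their own type than in any other library, and the exceptions were *Bcl11b*, *Crym* and *Elavl4*. The markers of other cells were not absent. Neuronal *Snap25* stood at 461.3 to 667.0 TPM in astrocytes and 204.9 to 233.4 in microglia, against 2112 to 10712 in the neurons. The 9 oligodendrocyte markers summed to 3155 to 3383 TPM in interneurons and at most 428.1 in the other neurons. They summed to 1062 to 1297 TPM in astrocytes and 598.7 to 691.8 in microglia. The choroid plexus gene *Ttr* reached 3635 TPM in astrocyte replicate 1 but 4.99 and 11.6 in the other astrocyte samples. In 4 replicates a second library was labelled as another batch, without saying what a batch stands for. Layer V replicate 1 is labelled female in batch 1 and male in batch 2, although the Y-linked *Ddx3y* stood at 0.0859 and 0.034 TPM there. Batch 1 libraries were used wherever both existed, and all interneuron and microglial libraries were from batch 2.

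Tubulin took its largest part of the translatome in 3 of the neuronal types and its smallest in microglia. All alpha and beta tubulin genes together made up 0.841% ± 0.0367 (SD, n = 3) of all TPM in cerebellar granule cells, with 0.823% ± 0.0194 in layer V neurons and 0.807% ± 0.00569 in interneurons. Dentate gyrus granule cells stood lower, at 0.508% ± 0.0623. Astrocytes, whose range overlapped that of dentate gyrus granule cells, were at 0.429% ± 0.0103 and microglia at 0.202% ± 0.00684. In bulk captures of this kind, fewer cells of a type and less RNA per cell cannot be told apart.

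The balance of alpha to beta messages also differed. Summed alpha TPM in microglia was 1238, 1219 and 1165 in replicates 1 to 3, above the summed beta TPM of 842.3, 820.1 and 781.7. In every other library beta exceeded alpha. The ratio of alpha to beta was 1.48 ± 0.0107 (SD, n = 3) in microglia, 0.743 to 0.832 as means of the 4 neuronal types, and 0.59 ± 0.0135 in astrocytes. These ratios are descriptions of message levels and carry no test.

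**Figure D1:**
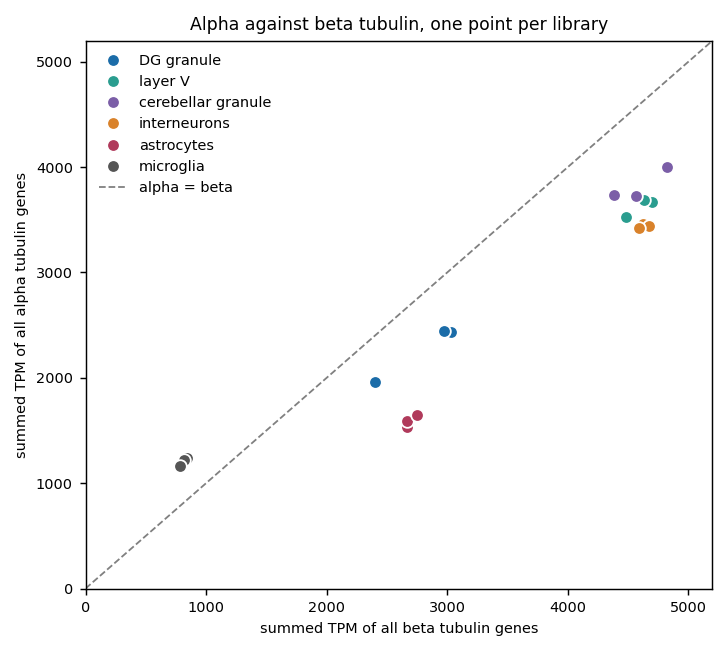
Summed TPM of all alpha tubulin genes (vertical axis) against all beta tubulin genes (horizontal axis), with 1 point per library coloured by cell type and a dashed line where they are equal. The microglial points lie above the line, with alpha between 1165 and 1238 TPM, and all other points lie below it.

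*Tuba1a*, *Tuba1b* and *Tuba4a* supplied at least 98.7% of alpha tubulin TPM in every library. *Tuba1a*, the alpha isotype best known in postmitotic neurons, led in 5 cell types, with a share of 44.7% ± 0.444 to 48.9% ± 0.497 in the neurons and 58.5% ± 2.97 in astrocytes. In microglia *Tuba1b*, a widely expressed alpha isotype, led with 54.8% ± 0.858, and *Tuba1a* held 38.2% ± 0.366. *Tuba4a*, the isotype without an encoded tyrosine, held 17.2% ± 0.323 in interneurons, 25% ± 0.199 to 27.4% ± 0.77 in the other neurons, 20.6% ± 1.8 in astrocytes and 5.83% ± 0.611 in microglia. Among the alpha genes that are not members, *Tuba8* reached 0.921% ± 0.0679 in interneurons and *Tuba1c* 1.13% ± 0.0903 in microglia.

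The beta family changed its leading isotype from cell type to cell type. *Tubb2a* led in dentate gyrus granule cells with 50.1% ± 2.04, in interneurons with 38.5% ± 0.593 and in layer V neurons with 31% ± 0.351 of beta tubulin TPM. *Tubb4a* led in cerebellar granule cells with 64.1% ± 0.425. *Tubb2b* led in astrocytes with 45.1% ± 1.1, and *Tubb5* in microglia with 37.1% ± 0.877 (SD, n = 3 throughout). Each leading share varied little among replicates, the widest being 47.9% to 51.9% for *Tubb2a* in dentate gyrus granule cells. Shares of estimated counts, which do not correct for length, put *Tubb4a* first in layer V neurons, at 29.8% ± 0.144 against 23.4% ± 0.264 for *Tubb2a*.

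The evenness of the mixture differed as well. The effective number of beta isotypes, the inverse of the summed squared shares, was 2.25 ± 0.024 in cerebellar granule cells. It was 3.29 ± 0.174 in the dentate gyrus and 3.39 ± 0.079 in astrocytes. Interneurons reached 4.07 ± 0.0495, with 4.24 ± 0.113 in microglia and 4.54 ± 0.0216 in layer V neurons. Cerebellar granule cells thus leaned most on a single isotype, and layer V neurons had the most even mixture.

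**Figure D2:**
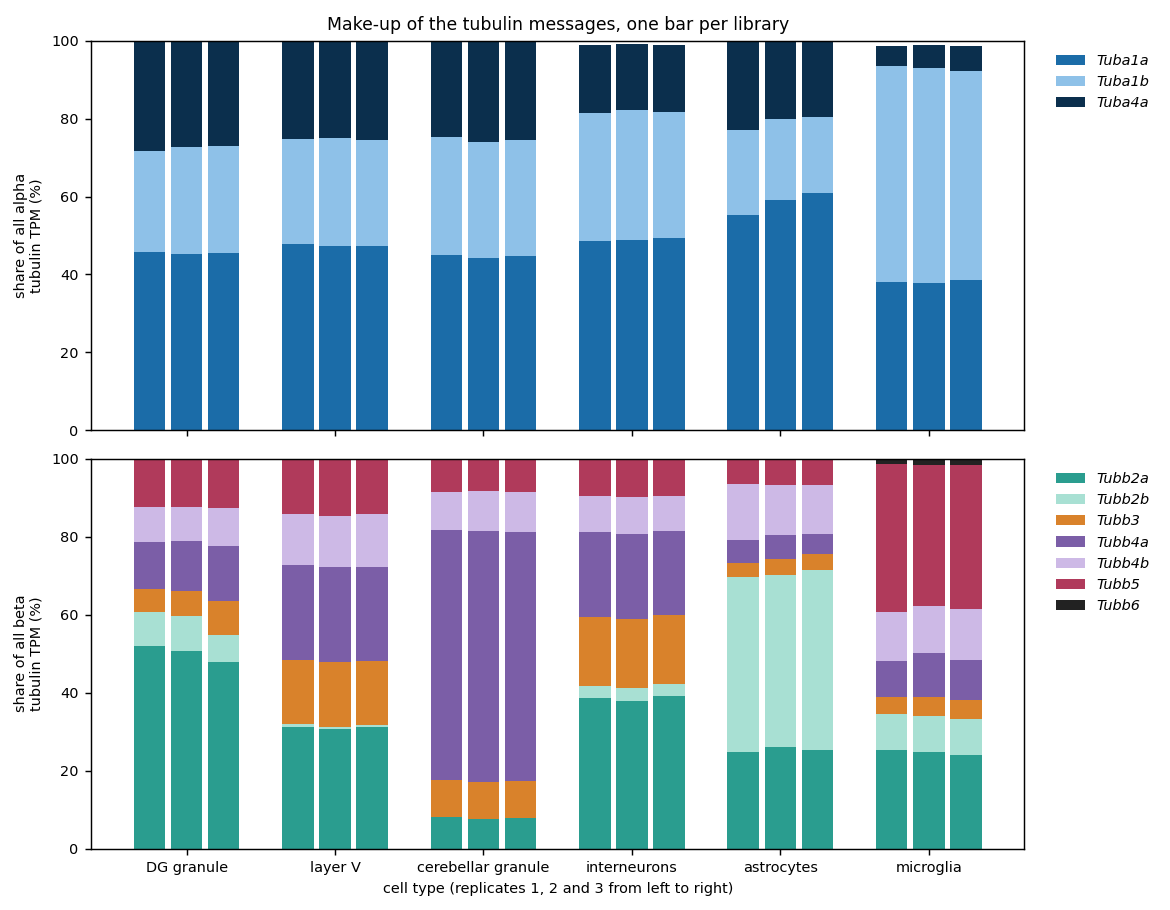
Share of all alpha tubulin TPM (upper panel) and all beta tubulin TPM (lower panel) held by each isotype, in percent, with 1 stacked bar per library in 6 groups of 3. *Tubb4a* fills 63.8% to 64.6% of the beta bars of cerebellar granule cells, *Tubb2b* 44.2% to 46.3% in astrocytes and *Tubb5* 36.3% to 38% in microglia.

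Levels of *Tuba1a* in replicates 1 to 3 were 1754, 1666 and 1745 TPM in layer V neurons, 1677, 1684 and 1690 in interneurons and 1800, 1647 and 1674 in cerebellar granule cells. For dentate gyrus granule cells the values were 899.8, 1101 and 1111, for astrocytes 845.2, 942.0 and 1006 and for microglia 472.2, 460.7 and 449.0. The first 3 cell types overlapped, dentate gyrus granule cells and astrocytes overlapped with each other, and microglia lay below all others.

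*Tuba1b* stood at 1205, 1116 and 1105 TPM in cerebellar granule cells, with 1143, 1148 and 1108 in interneurons and 995.6, 977.9 and 1004 in layer V neurons. It stood at 686.8, 671.3 and 627.1 in microglia, 506.6, 667.7 and 673.6 in dentate gyrus granule cells and 333.6, 327.1 and 321.8 in astrocytes. Unlike *Tuba1a*, this isotype was lower in astrocytes than in microglia, whose range overlapped that of dentate gyrus granule cells.

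Cerebellar granule cells held *Tuba4a* at 990.5, 963.0 and 954.9 TPM, and layer V neurons at 916.8, 873.9 and 928.2. The dentate gyrus followed with 555.0, 658.4 and 654.9, and interneurons with 606.3, 581.1 and 587.3. In astrocytes it was at 346.6, 316.0 and 317.6 and in microglia at 63.9, 72.7 and 74.1. Every neuronal library exceeded every glial library, and dentate gyrus granule cells and interneurons overlapped. This gene was the member spread over most transcripts. Its leading model, Tuba4a-201, lacks the start of the coding sequence and held 40.2% to 65.3% of the gene's TPM, and non-coding models held up to 23.1%.

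*Tubb2a*, a major beta isotype of brain, was at 1786, 1772 and 1794 TPM in interneurons, 1469, 1372 and 1440 in layer V neurons and 1244, 1534 and 1424 in dentate gyrus granule cells. It fell to 386.4, 343.2 and 339.8 in cerebellar granule cells, below the 664.7, 695.4 and 693.2 of astrocytes, and was at 212.4, 202.8 and 188.0 in microglia. The 4 neuronal types thus spanned a ratio of means of 5, and only layer V neurons and dentate gyrus granule cells overlapped.

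*Tubb2b*, which encodes nearly the same protein, had another order. Astrocytes stood at 1195, 1180 and 1274 TPM, dentate gyrus granule cells at 211.3, 272.8 and 203.4, interneurons at 145.5, 150.8 and 147.3 and microglia at 79.1, 76.9 and 72. Layer V neurons stood at 31.8, 25.9 and 30.2 and cerebellar granule cells at 2.67, 2.24 and 1.64. No neighbouring ranges overlapped, and the astrocyte mean was 5.31 times that of dentate gyrus granule cells and 557.4 times that of cerebellar granule cells. The cerebellar value rested on 142, 99 and 81 estimated counts. A second library of cerebellar replicate 3 gave 2.34 TPM against 1.64.

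*Tubb3* was at 819.7, 839.4 and 814.6 TPM in interneurons, 772.6, 749.8 and 761.5 in layer V neurons and 464.6, 431.4 and 421.3 in cerebellar granule cells. The 3 dentate gyrus libraries spread from 141.2 through 198.6 to 258.3. Astrocytes were at 92.7, 107.7 and 109.6 and microglia at 36.8, 39.8 and 38.2. Every neuronal library was above every glial library, and the mean of dentate gyrus granule cells was 1.93 times that of astrocytes.

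*Tubb4a* had its maximum in cerebellar granule cells, at 3089, 2948 and 2797 TPM, the highest level of any isotype in the series. It was at 1147, 1090 and 1116 in layer V neurons, 1002, 1014 and 983.2 in interneurons and 292.1, 384.1 and 417.7 in dentate gyrus granule cells. Astrocytes were at 157.0, 168.4 and 146.7 and microglia at 76.5, 92.2 and 78.8. No ranges overlapped, and the highest mean was 35.7 times the lowest. Oligodendrocytes also express this isotype, and the myelin gene *Mbp* was at 1160 to 1213 TPM in the interneuron libraries and at most 204.6 TPM in the other neurons. In astrocytes *Mbp* was at 428.7 to 528.2 TPM and in microglia at 195.1 to 222.4. The part of oligodendrocyte transcripts in the interneuron and glial values was not tested.

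*Tubb4b*, an isotype found in many tissues and in cilia, was at 613.1, 596.1 and 619.5 TPM in layer V neurons, 470.9, 462.8 and 451.4 in cerebellar granule cells and 434.2, 447.7 and 416.5 in interneurons. Astrocytes, at 384.8, 341.8 and 345.9, lay above dentate gyrus granule cells, at 215.5, 265.3 and 290.3. Microglia were at 106.4, 99.1 and 103.5, so the dentate gyrus was the neuronal type nearest to them.

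*Tubb5*, the general beta isotype of dividing cells, was at 664.9, 650.9 and 661.1 TPM in layer V neurons, 436.9, 451.9 and 435.1 in interneurons, 412.8, 376.3 and 375.1 in cerebellar granule cells and 293.6, 378.4 and 379.4 in dentate gyrus granule cells. Microglia were at 320.1, 297.3 and 288.7 and astrocytes at 166.6, 172.6 and 175.3. Dentate gyrus granule cells overlapped both cerebellar granule cells and microglia, and *Tubb5* led the microglial beta family without being higher there than in the neurons.

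*Tubb6*, a minor isotype, was at 10.9, 11.7 and 12.3 TPM in microglia, 4.01, 3.35 and 4.08 in astrocytes and 0.884, 0.537 and 0.61 in interneurons. The remaining neurons were at or below 0.291 TPM, on 3 to 13 estimated counts per library, and their order is not resolved at this depth. The microglial values rested on 591, 694 and 939 estimated counts and made up 1.43% ± 0.141 of beta tubulin TPM.

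Of 50 neighbouring pairs in the orders of the 10 isotypes, 11 had overlapping ranges. Dentate gyrus granule cells were the most variable group. Their coefficient of variation was 14.8% at the median of 9 isotypes, without *Tubb6*, and 29.4% for *Tubb3*, whereas the medians of the other types were 1.83% to 5.28%. Replicate 1 had the lowest dentate gyrus value for 8 of the 10 isotypes. The others, *Tubb2b* and *Tubb6*, were lowest in replicate 3. *Stmn2*, a neuronal tubulin-binding protein, stood at 106.5, 151.6 and 201.1 TPM in replicates 1 to 3 and so was lowest in replicate 1 too. What the replicates differed in was not tested.

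**Figure D3:**
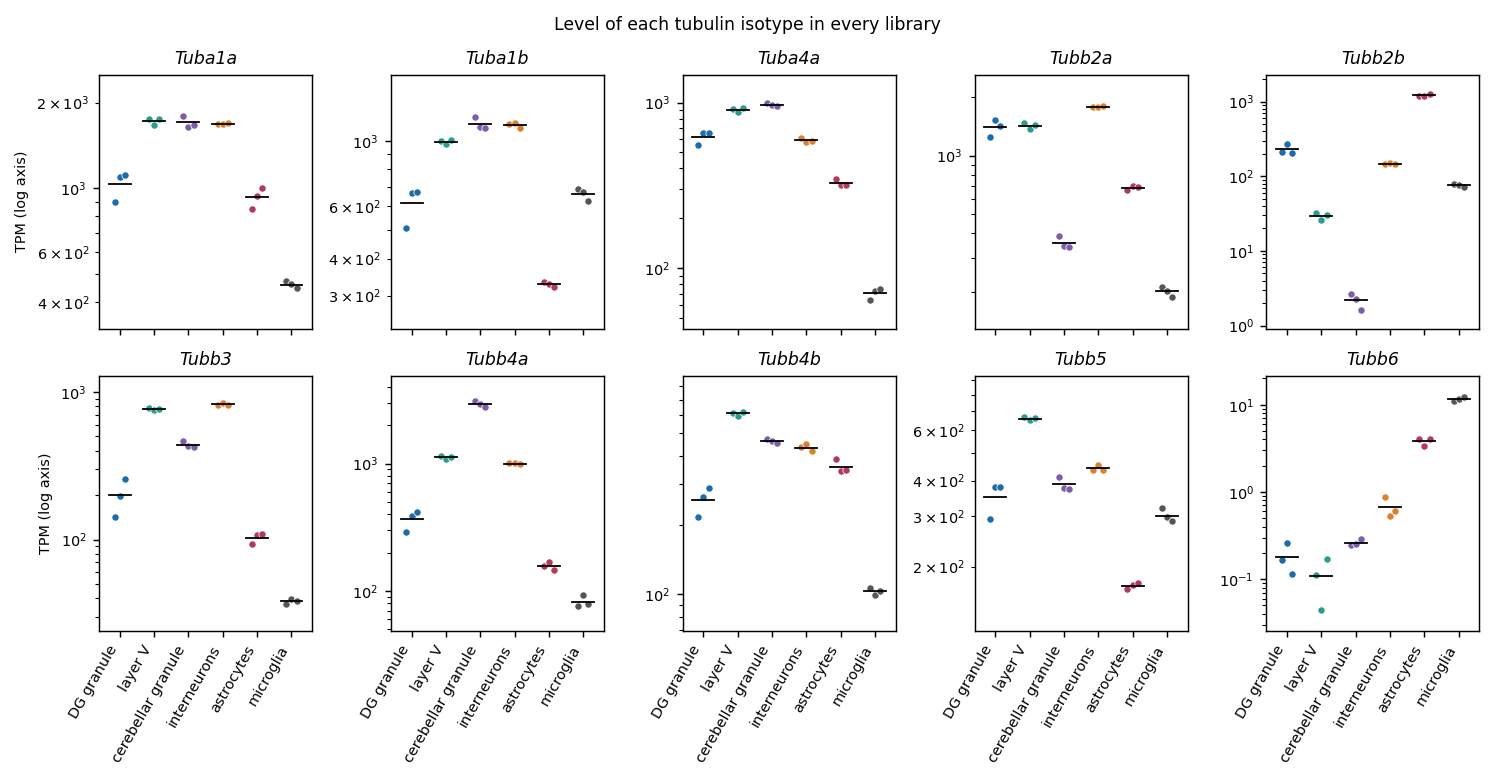
TPM of each isotype (log axes, scaled separately per panel) in the 18 libraries by cell type, with 1 point per library and a horizontal line at the mean of 3. *Tubb4a* is highest in cerebellar granule cells at 2797 to 3089 TPM and *Tubb2b* in astrocytes at 1180 to 1274, while *Tubb6* does not exceed 12.3.

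The differences were tested with edgeR's quasi-likelihood test on estimated counts of all 20524 genes that passed the count filter, with Benjamini-Hochberg adjustment over those genes. All 10 isotypes passed the filter, although *Tubb6* held fewer than 10 counts in every dentate gyrus and layer V library. Nearly every gene differed somewhere: 97.3% of all genes tested were called for any difference among the 6 cell types and 88.3% among the 4 neuronal types. All 10 isotypes were called in both, which is close to the share of all genes, so these calls do not set the isotypes apart from other genes.

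Against the average of astrocytes and microglia, 8 isotypes were higher in neurons and 2 were lower, where 36.5% of all genes tested were higher and 46.8% lower. The median log2 difference of the 10 isotypes was 0.94, against -0.18 over all genes. *Tubb4a* (2.95 ± 0.06 SE, adjusted p = 4.9e-18), *Tubb3* (2.70 ± 0.09, adjusted p = 5.2e-15) and *Tuba4a* (2.27 ± 0.04, adjusted p = 1.1e-19) showed the largest neuronal excess on the log2 scale. *Tubb2a* followed with 1.28 ± 0.05, and *Tuba1a*, *Tubb4b*, *Tuba1b* and *Tubb5* lay between 0.97 and 0.74. *Tubb2b* (-3.19 ± 0.07, adjusted p = 4.4e-18) and *Tubb6* (-5.02 ± 0.14, adjusted p = 3.2e-16) were lower in neurons.

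The average of the glia joined unequal levels. Mean neuronal TPM of *Tubb4b* was 4.28 times the microglial but 1.23 times the astrocytic mean, and within batch 1, where astrocytes were the only glia, its log2 difference was -0.06 (adjusted p = 0.37). Within batch 1 the neuronal excess of *Tubb2a* was 0.09 (adjusted p = 0.17), and interneurons were absent there too. The other isotypes were called there in the same direction, but the excess fell to 0.36 for *Tuba1a*, 1.28 for *Tuba4a* and 1.67 for *Tubb3*, while the difference of *Tubb2b* widened to -5.94. For *Tubb2b*, the microglial level lay among the neuronal levels, above layer V neurons and below interneurons. The 5 astrocyte markers summed to 161.4 to 209.8 TPM in microglia, against 4617 to 4870 in astrocytes. The part of astrocyte mRNA in the microglial *Tubb2b* value was not tested.

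Astrocytes and microglia differed in all 10 isotypes. In astrocytes 7 were higher, where 39.8% of all genes were, and 3 were lower, where 36.3% were. *Tubb2b* differed most, with a log2 difference of 4.20 ± 0.12 (adjusted p = 1.2e-15), followed by *Tuba4a* at 2.20 ± 0.06, *Tubb4b* at 1.86 ± 0.07 and *Tubb2a* at 1.83 ± 0.07. *Tubb3* (1.50 ± 0.14), *Tuba1a* (1.10 ± 0.08) and *Tubb4a* (1.01 ± 0.09) were also higher. *Tubb6* (-1.54 ± 0.19, adjusted p = 9.6e-07), *Tuba1b* (-0.94 ± 0.07, adjusted p = 1.4e-09) and *Tubb5* (-0.74 ± 0.07, adjusted p = 5.1e-08) were lower in astrocytes. The 2 glial types came mostly from different batches, and only 1 astrocyte replicate had a batch 2 library. With all 22 libraries and batch in the model, all 10 isotypes were called again.

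Beside the glial levels stand those of neuronal transcripts in the same libraries. Relative to layer V neurons, which come from the same tissue, *Tubb3* was at 13.6% in astrocytes and 5.03% in microglia and *Tubb4a* at 14.1% and 7.38%. For the neuronal markers, *Snap25* was at 10.3% and 3.91%, *Stmn2* at 12.8% and 4.86%, *Rbfox3* at 14.9% and 14% and the glutamate transporter *Slc17a7* at 17.1% and 9.04%. With *Syt1* at 18% and 7.24% and *Elavl4* at 11.9% and 4.75%, the glial values of *Tubb3* and *Tubb4a* and, in microglia, of *Tuba4a* (7.75%) lay in the range of the neuronal markers. The other isotypes lay above that range, though *Tubb2a* (14.1%) and *Tubb4b* (16.9%) in microglia were close to its upper end. The part of neuronal mRNA in the glial values was not tested, nor was that of oligodendrocyte mRNA.

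**Figure D4:**
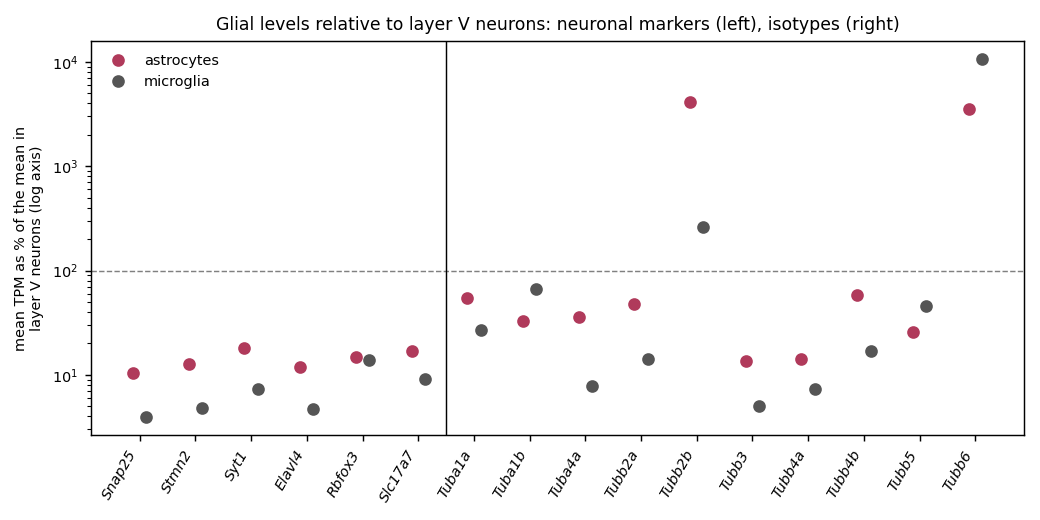
Mean TPM in astrocytes and microglia as a percentage of the mean in layer V neurons (log axis), for 6 neuronal markers on the left and the 10 isotypes on the right, with a dashed line at 100%. *Tubb3* (13.6% and 5.03%) and *Tubb4a* (14.1% and 7.38%) sit at the height of the markers, and *Tubb2b* and *Tubb6* lie above the dashed line in both glial types.

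Each neuronal type was then compared with the average of the other neurons on the log2 scale. That average joined unequal levels, so a type called higher could still lie below another type. In dentate gyrus granule cells 2 isotypes were higher (36.5% of all genes were) and 7 lower (27.6% of all genes). *Tubb2b* was higher by 3.42 ± 0.08 (adjusted p = 3.5e-16) and *Tubb2a* by 0.47 ± 0.06. The dentate gyrus mean of *Tubb2b* was 1.55 times that of interneurons. That of *Tubb2a* (1401 TPM) lay below the interneuron mean (1784), and its range overlapped that of layer V neurons. *Tubb4a* (-2.12 ± 0.08, adjusted p = 1.6e-13), *Tubb3* (-1.79 ± 0.12, adjusted p = 3.4e-10) and *Tubb4b* (-1.02 ± 0.06) were lowest. The call for *Tubb6* was missed, at -0.69 ± 0.33 (adjusted p = 0.075), and was gained when dentate gyrus, layer V or interneuron replicate 2 was left out.

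In layer V neurons 8 isotypes were called higher, where 35.9% of all genes were, and *Tubb2b* and *Tubb6* lower, where 31.7% were. The differences were moderate: *Tubb3* was higher by 1.09 ± 0.10 (adjusted p = 2.7e-08), *Tubb5* by 0.96 ± 0.06 (adjusted p = 6.5e-11), *Tubb4b* by 0.94 ± 0.05 (adjusted p = 2.7e-11) and *Tubb2a* by 0.78 ± 0.06. *Tubb5* and *Tubb4b* were highest in layer V neurons. Interneurons, however, lay above layer V neurons for *Tubb3* (means of 824.6 against 761.3 TPM) and *Tubb2a* (1784 against 1427). For *Tubb6* (-1.35 ± 0.33) the layer V libraries held 3 to 9 counts, the call was missed within batch 1 (-0.83, adjusted p = 0.057), and no order among these neurons is read from it. *Tubb2b* was at -0.29 ± 0.10 (adjusted p = 0.015), lost its call without layer V replicate 2 (-0.25) and turned to 0.56 within batch 1, which lacks interneurons.

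Cerebellar granule cells held the largest difference of the 4 neuronal comparisons, that of *Tubb2b*. In all, 5 isotypes were higher (34.9% of all genes were) and 3 lower (43.0% of all genes). *Tubb4a* was higher by 2.02 ± 0.07 (adjusted p = 5.7e-15), whereas *Tubb2b* (-5.52 ± 0.14, adjusted p = 1.5e-16) and *Tubb2a* (-2.10 ± 0.07, adjusted p = 5.5e-15) were lower. The alpha isotypes were higher by 0.26 ± 0.07 to 0.53 ± 0.04. *Tubb4b* (0.18 ± 0.05) and *Tubb5* (-0.24 ± 0.06) were called but small, and *Tubb3* was not called, at -0.18 ± 0.11 (adjusted p = 0.14). With library totals in place of the TMM scaling, *Tuba1a* (0.09) and *Tubb4b* (0.01) lost their calls and *Tubb3* (-0.35) gained one. *Tubb5* lost its call without cerebellar replicate 2 (-0.14). Within batch 2, *Tubb4b* (0.19) and *Tubb5* (-0.21) lost their calls and *Tubb3* (-0.24) gained one, and within batch 1 *Tubb6* (0.96) gained one on 10 to 13 counts per cerebellar library.

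In interneurons 5 isotypes were higher, where 36.0% of all genes were, and 3 lower, where 28.4% were. *Tubb2b* was higher by 2.39 ± 0.09 (adjusted p = 6.8e-14), *Tubb3* by 0.88 ± 0.10 and *Tubb2a* by 0.85 ± 0.06, and *Tuba4a* was lower (-0.69 ± 0.04, adjusted p = 2.2e-10). The interneuron mean of *Tubb2b* (147.9 TPM) lay below that of dentate gyrus granule cells (229.2), while *Tubb3* and *Tubb2a* were highest in interneurons. *Tubb6* was called higher (1.85 ± 0.24) on 25 to 40 counts per interneuron library against 3 to 13 in the other neurons, so the size of its difference is poorly known. *Tuba1b* (0.19 ± 0.06), *Tubb4a* (-0.24 ± 0.07) and *Tubb5* (-0.19 ± 0.06) were called by a small margin. *Tuba1b* lost its call without interneuron replicate 1 (0.15), *Tubb4a* without replicate 3 (-0.19) and *Tubb5* without replicate 2 (-0.18) or 3 (-0.14). With library totals in place of TMM, *Tubb4a* (-0.07) and *Tubb5* (-0.02) lost their calls and *Tuba1a* (0.22) gained one. *Tubb5* also lost its call without the count filter (-0.15), and *Tuba1b* with all 22 libraries and batch (0.12) and within batch 2 (0.10). *Tuba1a* (0.05 ± 0.07) and *Tubb4b* (-0.09 ± 0.05) were not called, though *Tubb4b* was without dentate gyrus replicate 1 (-0.12), with all 22 libraries and batch (-0.15), within batch 2 (-0.18) and on protein-coding transcripts alone (-0.12). Interneurons were the only neurons with libraries in batch 2 alone.

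**Figure D5:**
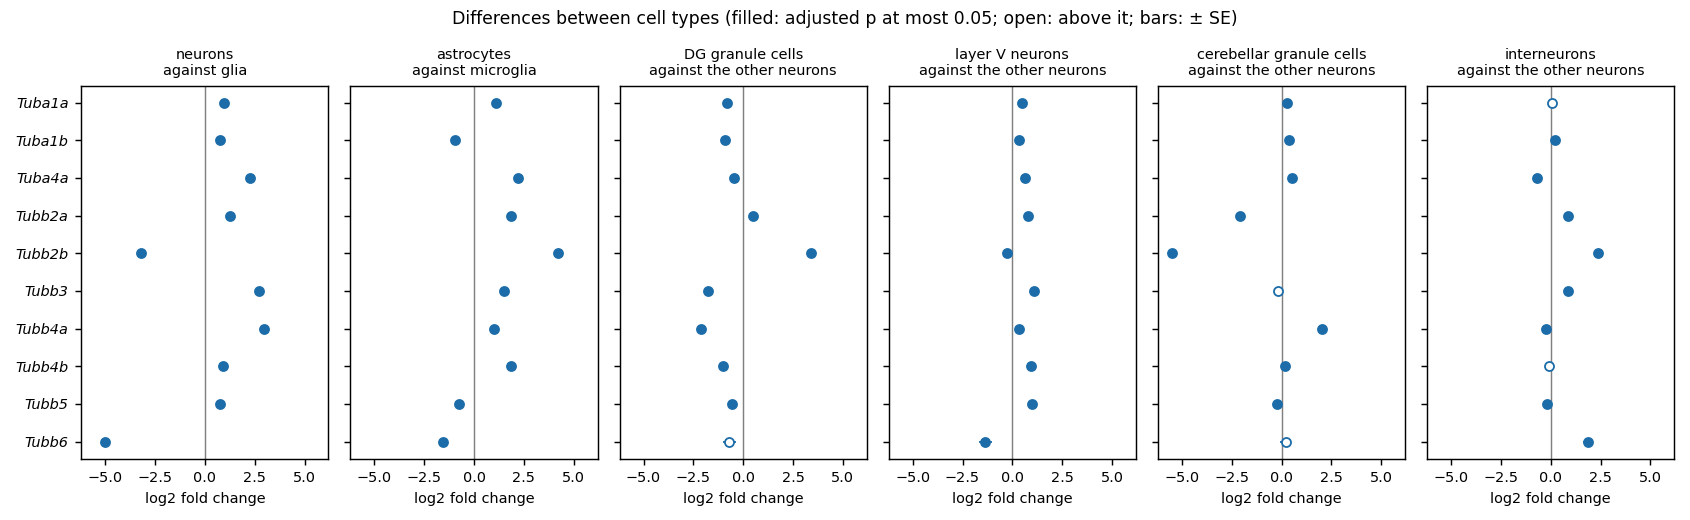
Log2 fold change (horizontal axes) of the 10 isotypes in 6 comparisons from edgeR, with bars of ± SE and filled points where the adjusted p was at most 0.05. *Tubb2b* moves most, from -5.52 in cerebellar granule cells to 4.20 between astrocytes and microglia.

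The other genes of tubulin biology were taken from lists, compared between neurons and glia and read against the same 36.5% higher and 46.8% lower of all genes. Of 34 microtubule-associated and -regulating proteins, 29 were higher in neurons, 4 lower and 1 not called, with a median log2 difference of 1.41. Leading them were the stathmin family members *Stmn2* (3.15 ± 0.09) and *Stmn3* (2.98 ± 0.06), which bind tubulin dimers, and *Map1b* (2.78 ± 0.04), an axonal microtubule-associated protein. *Mapre1*, a protein of growing microtubule ends, was among those that were lower.

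The 16 tubulin-modifying enzymes were divided, with 9 higher and 7 lower in neurons and a median of 0.26. The largest differences called were those of *Ttll7* (2.66 ± 0.04) and *Ttll11* (2.16 ± 0.05), which add glutamates to tubulin tails, and *Agtpbp1* (2.59 ± 0.03), which removes them. Related enzymes of the list went both ways. *Ttll1* (1.34 ± 0.04), *Ttll5* (0.84 ± 0.04) and *Agbl4* (0.48 ± 0.12) were also higher in neurons. Some enzymes of tail glutamates were lower: *Ttll4* (-0.60 ± 0.06) and the very low *Ttll6* (-1.44 ± 0.47), which add them, and *Agbl5* (-0.39 ± 0.07), which removes them. Of the listed genes that do not act on tail glutamates, *Svbp* (-2.15 ± 0.06) and *Sirt2* (-1.81 ± 0.03) differed most, and both were lower in neurons. *Agtpbp1* was highest in cerebellar granule cells, at 453.2 TPM ± 10.8, where *Tubb4a* was highest too.

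Of 21 folding cofactors and chaperones, 17 were higher in neurons, 3 lower and 1 not called, with a smaller median of 0.46. The prefoldin subunits *Vbp1* (1.16 ± 0.05) and *Pfdn4* (0.83 ± 0.04) and the chaperonin subunit *Cct6a* (0.83 ± 0.03) led. Among the 4 other tubulins, *Tubg2* (2.01 ± 0.05), *Tube1* (1.31 ± 0.09) and *Tubg1* (1.07 ± 0.04), the gamma and epsilon tubulins of microtubule-organizing centers, were higher. Of the 8 alpha and 8 beta tubulin genes, 5 and 8 were tested. Outside the 10 isotypes, *Tuba8* was higher in neurons (1.36 ± 0.12), with 31.7 TPM ± 2.39 in interneurons, and *Tuba1c* (-3.98 ± 0.19) and the very low *Tubb1* (-4.73 ± 0.50) were lower. *Tubb1* held 0 to 2 estimated counts per neuronal library, 6 to 12 in microglia and 22 to 40 in astrocytes. It thus passed the count filter through glia alone, and its difference is not read as a result.

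The genes whose log2(TPM + 1) followed each isotype most closely over the 18 libraries are given as a description, since libraries of a type share that type and the 6 types set most of each correlation. *Tubb3* was followed by *Gng3* (r = 0.996), *Fabp3* and *Hint1* (both 0.991), and *Tubb4a* by *Stmn2* (0.993), *Asb13* (0.990) and *Vsnl1* (0.989). For *Tubb2a* the closest were *Tpgs2* (0.994), a subunit of the tubulin polyglutamylase complex, *Pebp1* and *Morn4* (both 0.982). *Tubb2b* ran with *Sox8* (0.974), *Mro* (0.973) and *Etfbkmt* (0.971).

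Among the alpha isotypes, *Tuba1a* was followed by *Scg5* (0.988), *Fgf12* (0.987) and *Ankrd9* (0.982). *Tuba1b* was followed by the chaperone gene *Hspa8* (0.987), *Leprotl1* (0.969) and *Hprt* (0.968), and *Tuba4a* by *Trim37* (0.990), the microtubule-binding kinase gene *Dclk1* (0.988) and *Mapk8ip1* (0.986). *Tubb4b* ran with the mitochondrial genes *Cisd3* (0.978), *Cox8a* (0.974) and *Ndufs5* (0.972), and *Tubb5* with *Nedd8* (0.975), the prefoldin gene *Pfdn2* (0.972) and *Denr* (0.958). For *Tubb6* the 3 closest, *Fadd* (0.994), *Arap1* (0.993) and *Trim25* (0.991), dropped to ranks 13, 23 and 75 with a pseudocount of 0.1. Among the isotypes themselves, *Tuba1a* and *Tubb3* were most alike (r = 0.97), and *Tuba4a* and *Tubb6* most opposed (-0.96).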

How the data were processed

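Per the labels and the study's methods, the authors prepared stranded mRNA libraries, trimmed reads with cutadapt 3.5 and quantified them with kallisto 0.46.2 against GENCODE M24 transcripts. No strand setting is given in the sources used here. The deposited tables give estimated counts and TPM per transcript, and transcript lengths. Both units were summed by gene ID, the isotypes were then found by gene symbol, and estimated counts were rounded. Where a replicate had libraries in both batches, batch 1 was used, giving 18 of 22 libraries with 3 per cell type. Genes were filtered by edgeR's filterByExpr, scaled by TMM and tested with edgeR 4.0.16 (R 4.3.3, quasi-likelihood, threshold 0.05 on adjusted p). DESeq2 1.42.0 was an alternative. The test was checked on simulated data. Shares use all alpha or all beta genes as the denominator and TPM as the unit, and levels and shares carry no test. Genes were named by a rule: all isotypes, the 3 genes per list with the largest called neuron-glia difference, and the 3 protein-coding genes most correlated with each isotype. *Mapre1*, *Stk16*, *Ttll1*, *Ttll4*, *Ttll5*, *Ttll6*, *Agbl4*, *Agbl5*, *Svbp*, *Sirt2*, *Tubd1* and the marker genes were named after their values were seen. The members and lists were chosen with earlier results of these data known. Sequences and gene models come from GENCODE M21 (GRCm38), which held 98.9% of the deposited transcript IDs and all 10 leading transcripts. Some items are not reported here.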

Additional observations from a re-analysis of the deposited data

How the results depend on the processing

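Each isotype's log2 fold change was recomputed under other scalings, filters, tools, transcript sets and batches and without each replicate. Of 1780 such values 1746 kept direction and call, as did 298 of 300 for neurons against glia. Reversed were *Tubb4b* for neurons against glia within batch 1 (-0.06), *Tubb2b* for layer V neurons within batch 1 (0.56), *Tubb3* for cerebellar granule cells within batch 1 (0.19), *Tuba1a* for interneurons with all 22 libraries and batch (-0.01) and within batch 2 (-0.03), and *Tubb4b* for interneurons with library totals (0.08). A batch holds other cell types as well as other libraries, so the cause was not tested. Leaving out 1 replicate kept 10 isotypes called for neurons against glia and moved the count from 8 to between 6 and 9 for interneurons. The lowest came without interneuron replicate 3. The cell type with the highest mean changed for *Tuba1a* without layer V replicate 1 or cerebellar replicate 2 or 3, and for *Tuba1b* without cerebellar replicate 1 or interneuron replicate 3. For both the ranges of the leading types overlapped. Same-numbered replicates had correlated deviations above 0.1 in 20 of 45 pairs (-0.07 to 0.22). Since the others did not exceed it and the labels name no shared litter or day, the numbers were not taken as pairs. In the data, 13 of 18 samples correlated best with a sample of their own number, and all 3 pairs of dentate gyrus granule cells with microglia exceeded 0.1, which is a hint of structure shared by number. The Y-linked *Ddx3y* partly ran with the number. In replicate 1 it stood at 18.3 TPM in interneurons and at most 0.376 in the other types. Replicate 2 ranged from 0 to 98.7, and replicate 3 from 16.9 to 61.5. The part of sex in these correlations was not tested. With the replicate number as a block, neurons against glia called 10 isotypes and 17028 genes, against 17088 without it, and no isotype call changed. Repeat libraries of a replicate differed by a chi-square per degree of freedom of 1.77 to 3.62, against 9.98 to 66.5 between replicates. Depth limits *Tubb6* in neurons.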
